A study of Mus musculus with 12 samples.

Results

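The comparison described here asked, gene by gene, whether pancreas from mice labelled Atf3-/- answered cerulein as wild-type pancreas did. The quantity is the difference of responses: the log2 fold change of cerulein over saline in the labelled knockout minus the same fold change in wild type. All 12 of the 12 libraries of the series entered it, and it was computed again for the 11 libraries other than C3, a library labelled Atf3-/- and cerulein whose levels lay with the saline libraries. It could be tested for 14329 genes with 12 libraries and for 14733 genes with 11.

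The tissue was whole pancreas from C57Bl6 mice (wild type) and from a congenic line labelled Atf3-/-, aged 2 to 4 months. Mice were given cerulein at 50 ug/kg, or saline, in 4 injections, with collection at 4 h. There were 4 groups of 3 animals, per the series' design text. They were wild type with saline (W1, K5, R3), wild type with cerulein (O1, O3, N3), labelled knockout with saline (S1, K4, Q1) and labelled knockout with cerulein (C2, C3, L4). The labels do not say which part of Atf3 was deleted, nor give sex, litter or day.

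Cerulein is a peptide analogue of the hormone cholecystokinin. It acts on receptors of the acinar cells, which make and secrete the digestive enzymes, and high doses provoke acute pancreatitis in rodents. Atf3 encodes a basic leucine zipper transcription factor of the ATF/CREB family. It is switched on by many stresses, binds DNA as a homodimer or with AP-1 partners such as Jun, and can repress or activate its targets. A line without the factor is therefore used to ask which parts of an injury response need it.

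The libraries held 18292997 to 32158629 counts. Levels are given as CPM, counts scaled by TMM to a library of 1000000. Atf3 was not lower where the label says knockout: it stood at 394 to 775 CPM in the wild-type cerulein libraries, and at 1375 CPM in C2 and 1636 CPM in L4, but at 20.7 CPM in C3. After saline, Atf3 stood at 3.23, 1.13 and 5.28 CPM in wild type (W1, K5, R3). Its saline levels in S1, K4 and Q1 were 23.1, 7.44 and 13.5 CPM, each above every wild-type saline library. C3 lay within the range of S1, K4 and Q1. The difference of responses of Atf3 was -1.40 ± 1.47 (log2, SE) with 12 libraries and -0.82 ± 0.78 with 11, with edgeR's adjusted p at 0.838 and 0.999. Counts per gene cannot show whether a part of Atf3 was deleted, and the genotype was not tested. The animals are therefore called labelled knockout throughout. C3 was judged against the 7070 genes that responded in the fit without it. It lay inside the range of the 6 saline libraries for 4904 of them, past that range toward cerulein for 1300 and away from cerulein for 866. Its median distance from the labelled knockout saline mean, signed by the response, was 0.012 on the log2 scale, against 0.75 for C2 and L4. All defining acinar markers (Cpa1, Cela1, Ctrb1, Pnlip, Amy2a5, Cel and Cpb1) were detected in the 12 libraries, with Cpa1 between 36486 and 79806 CPM. In whole tissue a lower level can mean fewer cells of a type or less RNA per cell, and the 2 cannot be told apart.

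No gene's response differed between the genotype labels past the threshold. With 12 libraries, 0 of 14329 genes (0%) had an adjusted p under 0.05 in edgeR's quasi-likelihood test, the smallest being 0.812. At an unadjusted p under 0.05 there were 594 genes (4.15%), of which 359 (2.51%) had a difference above 0 and 235 (1.64%) one below 0. Without C3, 0 of 14733 genes (0%) passed, the smallest adjusted p being 0.999, and 508 genes (3.45%) had an unadjusted p under 0.05, 311 above 0 (2.11%) and 197 below 0 (1.34%). When no gene differs, an unadjusted threshold of 0.05 passes 5% of genes. Limma-voom called 0 genes in both sets of libraries, with 408 and 435 at an unadjusted p under 0.05. DESeq2 called 0 without C3 (525 unadjusted). With C3 it called 1 gene, Sntg2 (763 unadjusted). Of the genes past the unadjusted threshold, 289 were the same in both sets of libraries, and all 289 had the same sign.

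A p above the threshold does not show that 2 responses are alike, so alikeness had its own test. Responding genes were those whose mean cerulein response over the 2 labels had an adjusted p under 0.05, a contrast separate from the difference. A responding gene was called alike when 2 one-sided tests placed its difference of responses within 2-fold either way (a log2 value between -1 and 1) at an adjusted p under 0.05, and undecided when neither test passed. Without C3, 3950 genes rose with cerulein (26.8% of those tested) and 3120 fell (21.2%). Of these 7070 responding genes, 3611 were alike (51.1%), 3459 were undecided, and none was damped or larger past the threshold. Genes that both responded and were alike made up 24.5% of all genes tested, and 5799 genes (39.4%) were alike whether or not a response was called. The alike genes were more abundant, at a median of 15.5 CPM against 3.67 CPM for undecided genes, and more tightly measured, with a median half-width of the 95% interval of 0.551 against 1.05 on the log2 scale. The count of alike genes fell to 1593 without L4 and to 2004 without C2, the 2 remaining cerulein libraries of the labelled knockout.

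With all 12 libraries 3260 genes rose (22.8%) and 2225 fell (15.5%), and 999 of these 5485 responding genes were alike (18.2% of them, 6.97% of genes tested). Of those 999 genes 991 (99.2%) were also alike without C3. The count of alike genes with C3 kept was 3682 over the same genes when C3 was the library left out and 0 without R3, so a single library could remove or multiply it. Counted in each label apart, wild type had 4399 genes past the threshold (30.7%) and the labelled knockout 0 (0%), with 3256 at an unadjusted p under 0.05 and a smallest adjusted p of 0.0860. Without C3 wild type had 5583 (37.9%) and the labelled knockout 4306 (29.2%). Then 3736 genes passed in both, 66.9% of the wild-type genes and 86.8% of the labelled knockout genes, and 3735 of them had the same sign. Between labels, edgeR called 0 genes (0%) within saline and 0 (0%) within cerulein in either set of libraries. At an unadjusted p under 0.05 there were 60 and 1146 genes with 12 libraries, and 132 and 747 with 11.

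**Figure D1:**
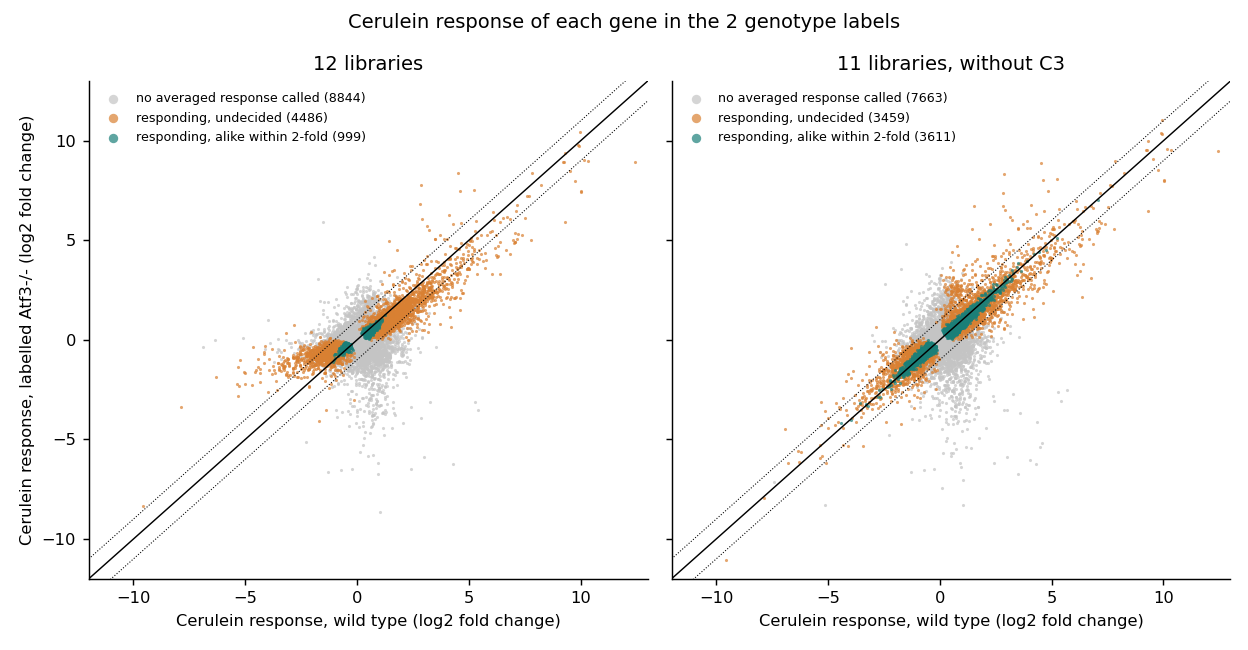
Each point is a gene, with its cerulein response in wild type (log2 fold change) across and in the labelled knockout upward, for 12 libraries (left) and without C3 (right). The solid line marks equal responses and the dotted lines 2-fold either way. With C3 the genes lower in cerulein flatten away from the line, and without it the responding genes lie along it, 3611 of them called alike.

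The sizes of the responses as a whole depended on C3. The signed difference takes the difference of responses with the sign of the averaged response, so that a negative value means a smaller response in the labelled knockout and a positive value a larger one. Over responding genes its median was -0.37 with 12 libraries (-0.31 for genes that rose, -0.46 for genes that fell) and -0.084 without C3 (-0.072 and -0.10). Without C3 the quartiles were -0.29 and 0.12, with 223 genes at or below -1 and 250 at or above 1. With C3, 4837 of 5485 genes had a negative value. Over all genes tested, the median difference was 0.0081 with 12 libraries and 0.0012 with 11.

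With C3 kept, the estimates were lowest among genes with large falls. With 12 libraries, the 72 genes that fell by an averaged log2 value of 2 to 3 had a median signed difference of -1.91. The 4 genes that fell by 4 or more had one of -3.47. Rises of these sizes had medians of -0.61 (309 genes) and -0.68 (130 genes). These group means include C3, and whether falls and rises differ in the labelled knockout was not tested. Without C3 the medians over the same 5 size classes ran from -0.063 to -0.20 for rises and from -0.085 to -0.25 for falls. The share of alike genes also went down with size. It was 73.1% of 1880 genes that rose by less than 1 on the log2 scale, 40.3% of 1344 between 1 and 2, 22.3% of 403 between 2 and 3, 8.86% of 158 between 3 and 4, and 3.03% of 165 at 4 or more. For genes that fell it was 65.3% of 1980, 29.1% of 934, 10.1% of 138, 11.1% of 45 and 4.35% of 23. The median half-width of the 95% interval went from 0.575 to 2.40 over these classes for rises and from 0.619 to 2.47 for falls.

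**Figure D2:**
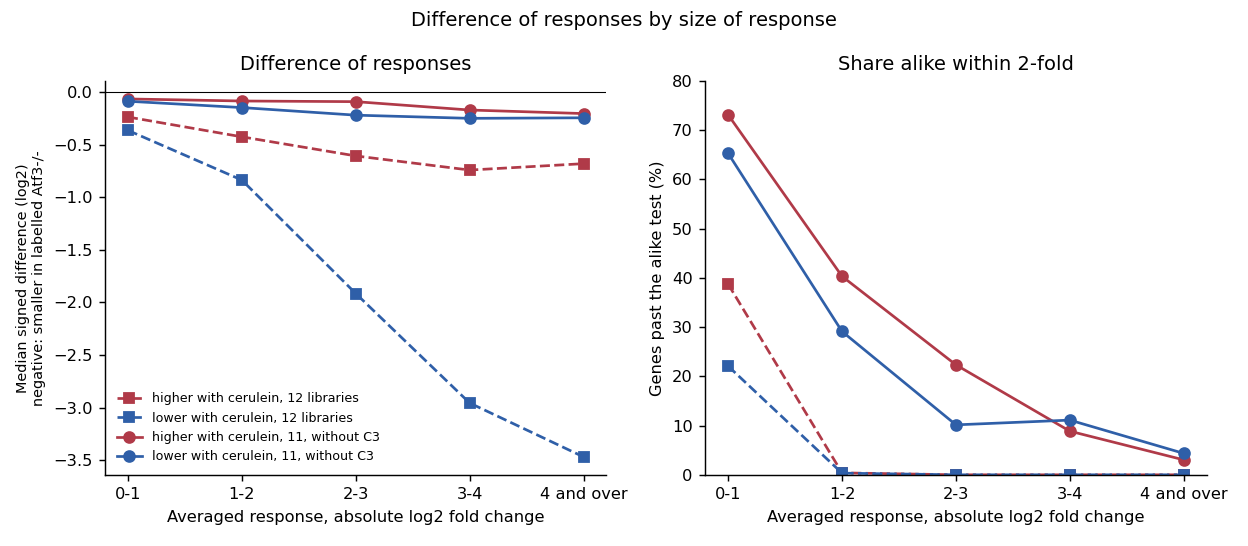
Left, the median signed difference of responses (log2, negative where the response was smaller in the labelled knockout) by the size of the averaged response. Right, the percentage of responding genes alike within 2-fold. Circles and solid lines leave out C3, squares and dashed lines keep it; red marks genes higher and blue genes lower with cerulein. Without C3 the medians stay between -0.25 and -0.063, while with it falls of 4 or more (4 genes) reach -3.47.

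The genes with the lowest p and a difference above 0 included 5 (Sntg2, Acot2, Zfp446, Pcyox1l and Rfesd) that fell in wild type in the fit without C3. The genes were chosen by the difference itself, so the responses in each label are a description. Sntg2, which encodes a syntrophin (an adaptor of the dystrophin complex), had the lowest p in both sets of libraries. Wild-type libraries had 0.453, 1.70 and 0.985 CPM after saline (W1, K5, R3) and 0.184, 0.0968 and 0.142 CPM after cerulein (O1, O3, N3). Labelled knockout libraries had 1.17, 1.29 and 0.775 CPM after saline (S1, K4, Q1) and 1.81, 2.06 and 1.64 CPM after cerulein (C2, C3, L4). The wild-type cerulein libraries lay below all others, and here C3 lay beside C2 and L4, above the labelled knockout saline libraries. The gene was low in every library, at 2.06 CPM or less. The wild-type cerulein levels rest on few reads, near the floor of what counts can measure. The difference of responses was 3.59 ± 0.66 with 12 libraries (unadjusted p = 0.000199, adjusted p = 0.812) and 3.50 ± 0.70 with 11 (unadjusted p = 0.000457, adjusted p = 0.999). DESeq2 gave 3.64 ± 0.78 with an adjusted p of 0.0481 with 12 libraries. Over the fits that left out 1 library the difference ran from 2.99 to 3.93.

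Acot2, a mitochondrial acyl-CoA thioesterase, came next. Wild type stood at 2.20, 3.08 and 3.43 CPM in saline (W1, K5, R3) and at 0.810, 0.581 and 0.708 CPM in cerulein (O1, O3, N3). The labelled knockout stood at 1.55, 1.56 and 2.26 CPM in saline (S1, K4, Q1) and at 3.17, 2.34 and 1.54 CPM in cerulein (C2, C3, L4), and these 2 groups overlapped. The difference was 2.44 ± 0.46 with 12 libraries and 2.44 ± 0.49 with 11 (unadjusted p = 0.000258 and 0.000490, adjusted p = 0.812 and 0.999). Acot2 has a close paralog in Acot1, so reads may be shared between them. Acot1 itself fell with cerulein in the averaged response, and its difference was 0.34 ± 0.79 without C3.

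Zfp446, a zinc finger gene, stood at 3.62 to 4.73 CPM in wild-type saline and 1.26 to 1.36 CPM in wild-type cerulein. In the labelled knockout it stood at 2.98 to 3.46 CPM in saline and at 2.79 (C2), 3.56 (C3) and 2.29 CPM (L4) in cerulein. The wild-type groups did not overlap. In the labelled knockout C2 and L4 lay just below the saline range and C3 just above it. The difference was 1.53 ± 0.31 with 12 libraries and 1.35 ± 0.29 with 11 (adjusted p = 0.812 and 0.999). Pcyox1l, related to the enzyme that degrades prenylated cysteine, and Rfesd, a Rieske domain gene, had differences of 1.33 ± 0.29 and 1.65 ± 0.41 with 12 libraries and 1.21 ± 0.29 and 1.41 ± 0.39 with 11. Mib2, a ubiquitin ligase of the Notch pathway, and Zfp790, another zinc finger gene, were among the 5 lowest p values only without C3, and there both rose in the labelled knockout with no response called in wild type. Mib2 was at 6.83 to 8.51 CPM in wild-type cerulein and at 17.8 (C2), 11.7 (L4) and 6.57 CPM (C3) in the labelled knockout, a difference of 1.31 ± 0.29 without C3 and 1.02 ± 0.42 with it. For Zfp790 the values were 1.09 ± 0.25 and 0.83 ± 0.36.

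The genes with the lowest p and a difference below 0 all rose in wild type. Without C3, 5 of these 9 genes (Ptpn4, Fbxo34, Nedd9, Pfkfb3 and Abhd5) rose in the labelled knockout too. Ptpn4, a protein tyrosine phosphatase, was the 1 gene among the 5 lowest in both sets of libraries. Wild-type libraries had 5.95, 6.73 and 5.75 CPM after saline (W1, K5, R3) and 28.6, 29.6 and 23.0 CPM after cerulein (O1, O3, N3). Labelled knockout libraries had 7.91, 5.92 and 6.02 CPM after saline (S1, K4, Q1) and 13.5, 7.74 and 15.1 CPM after cerulein (C2, C3, L4). C2 and L4 lay above all saline libraries and below all wild-type cerulein libraries. The difference was -1.27 ± 0.33 with C3 and -1.03 ± 0.24 without it (unadjusted p = 0.00295 and 0.00130, adjusted p = 0.812 and 0.999).

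Levels of 3 further genes had the same order. Fbxo34, an F-box gene of the ubiquitin system, stood at 13.3 to 15.9 CPM in wild-type cerulein and at 7.18 CPM in C2 and 9.92 CPM in L4, from 2.44 to 3.43 CPM over the 6 saline libraries. Nedd9, a scaffold protein of focal adhesions, reached 61.5 to 83.2 CPM in wild type, 33.1 CPM in C2 and 45.0 CPM in L4, from 3.86 to 9.0 CPM in saline. Pfkfb3, which makes an activator of glycolysis, reached 70.4 to 106 CPM in wild type, 34.0 CPM in C2 and 38.4 CPM in L4. In each of these 3 genes C2 and L4 lay above the saline libraries of both labels and below the wild-type cerulein libraries, and C3 lay inside or below the saline range (2.81, 4.69 and 9.19 CPM). Without C3 the differences were -1.10 ± 0.24 for Fbxo34, -1.57 ± 0.38 for Nedd9 and -1.60 ± 0.39 for Pfkfb3, and with C3 they were -1.46 ± 0.49, -2.07 ± 0.84 and -2.01 ± 0.63. Lrig1, a membrane protein that restrains EGF receptors, had estimates of opposite sign without C3, 0.65 ± 0.18 in wild type and -0.67 ± 0.20 in the labelled knockout. The difference, by which the gene was chosen, was -1.32 ± 0.27 and did not pass the adjusted threshold.

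The remaining genes below 0 were among the lowest p values with 12 libraries. Tank, an adaptor of TRAF signalling, stood at 21.1, 24.9 and 25.4 CPM in wild-type cerulein (O1, O3, N3) and at 19.9, 15.4 and 16.4 CPM in the labelled knockout (C2, C3, L4), a difference of -0.82 ± 0.20 with C3 and -0.75 ± 0.19 without it. Npc1, the lysosomal cholesterol transporter, reached 22.5 to 48.2 CPM in wild type and 13.1 (C2) and 12.9 CPM (L4) in the labelled knockout, a difference of -1.49 ± 0.41 without C3. Its locus overlaps Rmc1 on the other strand. Abhd5, a co-activator of fat breakdown, differed by -0.88 ± 0.26 without C3 and Fbxo33, an F-box gene, by -1.16 ± 0.34. None of the 16 genes of this kind passed the adjusted threshold in any fit that left out 1 library. The smallest adjusted p there was 0.460, for Sntg2 with C3 kept.

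**Figure D3:**
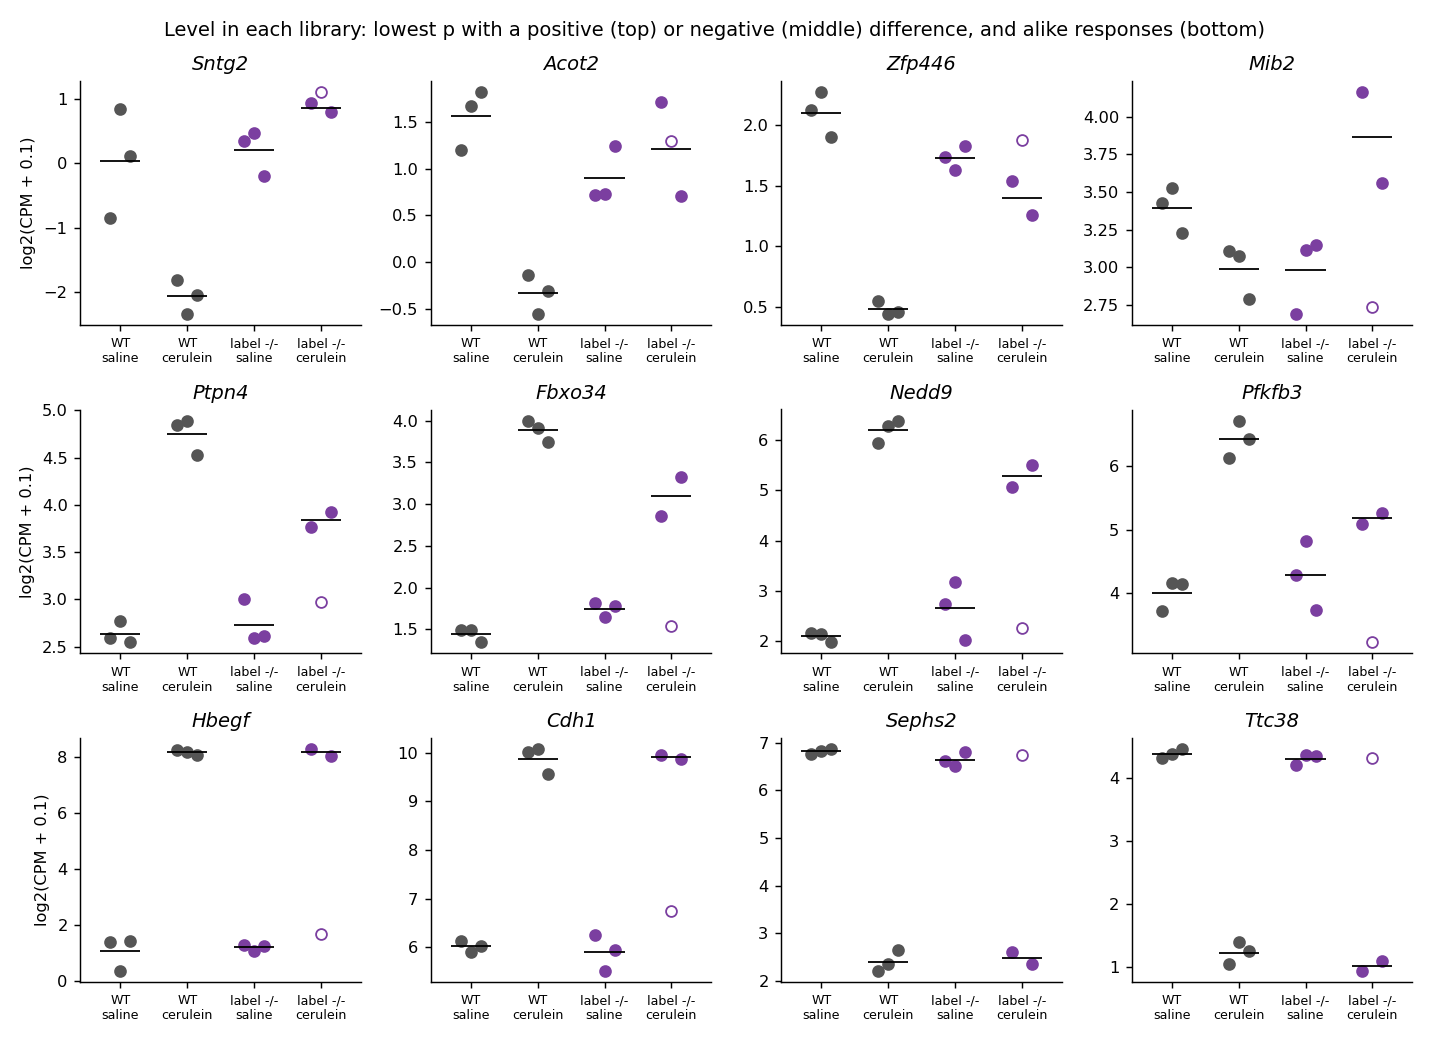
Level of 12 genes in each library, as log2(CPM + 0.1), by group. Points are libraries, the open point is C3, and bars are group means without C3. In the top row the wild-type cerulein libraries stand low for Sntg2, Acot2 and Zfp446, and for Mib2 C2 and L4 stand above wild-type cerulein. In the middle row C2 and L4 stand between the saline and the wild-type cerulein libraries, and in the bottom row C2 and L4 stand level with wild-type cerulein.

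Genes with large responses were among those called alike. Hbegf, the heparin-binding EGF-like growth factor, stood at 2.52, 1.18 and 2.60 CPM in wild-type saline (W1, K5, R3) and at 306, 289 and 269 CPM in wild-type cerulein (O1, O3, N3). In the labelled knockout it stood at 2.34, 2.00 and 2.26 CPM in saline (S1, K4, Q1) and at 313 (C2), 3.10 (C3) and 264 CPM (L4) in cerulein. C2 and L4 lay on either side of the wild-type cerulein libraries. The response was 7.09 ± 0.30 in wild type and 7.03 ± 0.30 in the labelled knockout without C3, a difference of -0.06 ± 0.36 with a 95% interval from -0.85 to 0.73 (adjusted p of the alike test = 0.0362). With C3 the difference was -0.64 ± 1.40 and the gene was undecided.

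Other genes among the largest alike rises had levels like these. Actg1, cytoplasmic gamma-actin, reached 2157 to 3307 CPM in wild-type cerulein, 2885 CPM in C2 and 3329 CPM in L4, with a difference of -0.11 ± 0.37. Krt18, a keratin of simple epithelia, reached 1896 to 2734 CPM in wild type, 2570.3 CPM in C2 and 2204 CPM in L4, a difference of 0.10 ± 0.38. Cdh1, the cell adhesion protein E-cadherin, reached 752 to 1080 CPM in wild type, 987 CPM in C2 and 932 CPM in L4, a difference of 0.10 ± 0.31. For each of the 3 genes C2 and L4 lay inside or close to the wild-type cerulein range. Zyx, a focal adhesion protein, differed by 0.19 ± 0.34 and Pvr, a nectin-like adhesion receptor, by -0.01 ± 0.32. Nck2, an adaptor that links receptors to actin, differed by 0.24 ± 0.31, Rab11fip3, an endosome recycling effector, by 0.33 ± 0.26, and Hspa4l, an Hsp110-type chaperone, by -0.22 ± 0.30. Zyx overlaps Epha1 on the other strand, and Nck2 overlaps a gene model on its own strand.

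Among genes that fell, Sephs2, which makes the selenium donor for selenoproteins, was the largest called alike. It stood at 109, 113 and 117 CPM in wild-type saline (W1, K5, R3) and at 4.53, 4.99 and 6.12 CPM in wild-type cerulein (O1, O3, N3). In the labelled knockout it stood at 97.6, 90.8 and 112 CPM in saline (S1, K4, Q1) and at 5.97 (C2), 107 (C3) and 5.0 CPM (L4) in cerulein. C2 and L4 lay inside the wild-type cerulein range and C3 inside the saline range. The difference was 0.24 ± 0.23 without C3 (adjusted p of the alike test = 0.0172) and 3.09 ± 1.28 with it. Ttc38, a tetratricopeptide gene, differed by -0.13 ± 0.20, Prodh, which starts proline breakdown, by -0.10 ± 0.27, Dhrs3, a retinal reductase, by 0.38 ± 0.25, and Slc7a8, a neutral amino acid transporter, by 0.10 ± 0.36. With C3 kept these differences were 1.88 ± 1.01, 1.34 ± 0.82, 2.38 ± 1.02 and 1.89 ± 0.98.

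The alike calls of single genes rested on few animals. Of the 25 named genes called alike without C3, 2 (Ttc38 and Rrp12) were called in every fit that left out 1 more library, and 23 lost the call in at least 1 such fit, 22 of them without L4 and 13 without C2. For Hbegf the adjusted p of the alike test then reached 0.101, and for Actg1 0.129. The estimate for Hbegf stayed between -0.26 and 0.22, and that for Actg1 between -0.29 and 0.063.

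None of 35 gene lists had a member past the threshold of the difference in either set of libraries. Of 570 distinct members tested without C3, 26 had an unadjusted p under 0.05 (4.56%), beside 3.45% of all genes tested. The counts that follow are without C3, each list's median difference stands beside 0.0012 over all genes tested, and alike counts are over members that responded. Over all genes tested without C3, 26.8% rose and 21.2% fell, and 51.1% of responding genes were alike. The list counts are to be read beside these shares. Medians and alike counts also moved when 1 more library was left out, and ranges given with a median are over those 11 fits. Without L4 the alike count was lower in all 24 lists that had an alike member, at 10 for ribosome biogenesis, 4 for digestive enzymes, 3 for aminoacyl-tRNA synthetases and 0 for ductal markers. Without C2 these counts were 12, 3, 6 and 0.

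**Figure D4:**
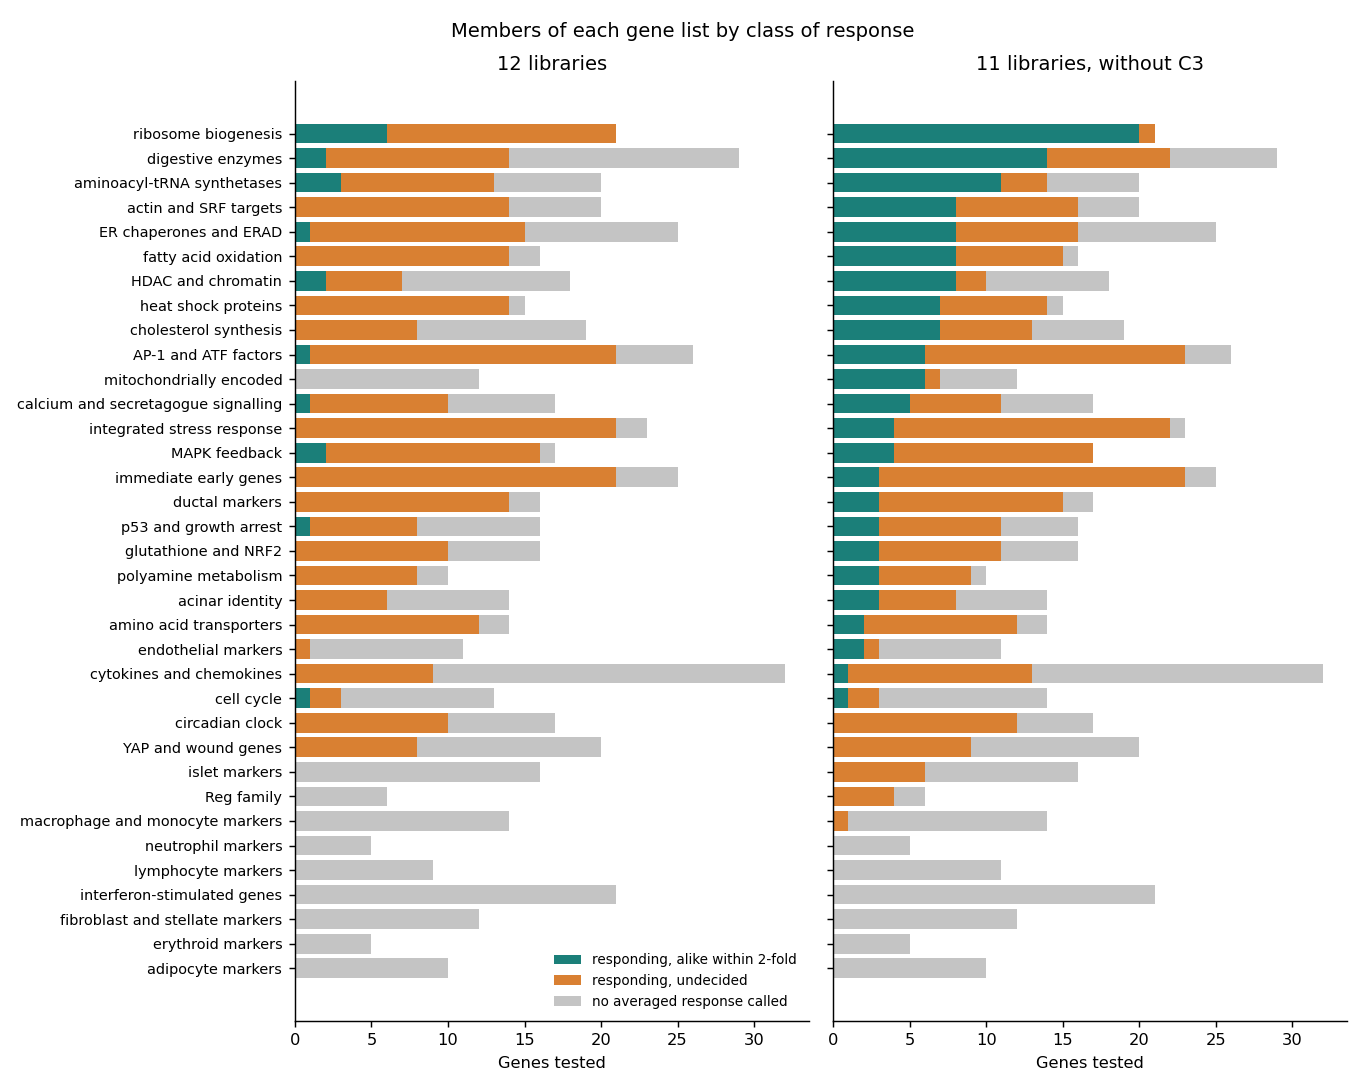
Number of tested members of each list that responded and were alike within 2-fold (green), responded and were undecided (orange) or had no averaged response called (grey), with 12 libraries (left) and without C3 (right). Ribosome biogenesis holds 20 alike members without C3 and 6 with it.

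The regulators that act first mostly rose, and most were undecided. Of 26 AP-1 and ATF factors, 22 rose and 1 fell, 6 were alike, and the median difference was -0.11 (-0.32 to -0.04). Fosl1, a Fos-family partner of AP-1, reached 66.7, 79 and 44.5 CPM in wild-type cerulein and 66.9 (C2) and 88.7 CPM (L4) in the labelled knockout, a difference of -0.03 ± 0.95. The alike members were Maff, Mafk, Mafg, Atf4, Atf7 and Cebpg, and Atf4, the central factor of the integrated stress response, differed by -0.00 ± 0.36. Of 25 immediate early genes, 22 rose, 1 fell and 3 (Nr4a2, Myc and Srf) were alike. Rcan1, a calcineurin inhibitor, reached 1575 to 2834 CPM in wild-type cerulein, 2427 CPM in C2 and 2429 CPM in L4. Its difference of 0.16 ± 0.42 had an interval from -0.76 to 1.09, just past the margin. Arc, an activity-regulated gene of synapses, stood at 86.0 CPM in C2 and 576 CPM in L4, on either side of the 125 to 229 CPM of wild type.

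Feedback genes restrain the MAP kinase cascade. Of 17 MAPK feedback genes 15 rose and 2 fell, and 4 were alike. Dusp1, which inactivates MAP kinases, stood at 195 to 237 CPM in wild-type cerulein and at 123 CPM in C2 and 116 CPM in L4. These did not overlap, and the difference was -1.16 ± 0.44 (unadjusted p = 0.0248, adjusted p = 0.999). Dusp5, which acts on ERK in the nucleus, stood at 88.4 CPM in C2 and 234 CPM in L4, on either side of the 110 to 162 CPM of wild type, with a difference of 0.44 ± 0.71. The Dusp1 locus overlaps Ergic1 on the other strand.

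Stress genes mostly rose. Of 23 integrated stress response genes, which slow translation and restore amino acids, 22 rose and 4 (Asns, Phgdh, Shmt2 and Slc3a2) were alike. The median difference was 0.22, but it was -0.01 without K4 and 0.49 without O1, and -0.21 without N3 and K4, where 14 of 23 members were below 0. Chac1, which degrades glutathione, reached 678 to 1863 CPM in wild-type cerulein, 1939.7 CPM in C2 and 2328 CPM in L4, a difference of 0.21 ± 0.63. Sesn2, a stress-induced inhibitor of mTORC1, reached 75.3 to 128 CPM in wild type, 169 CPM in C2 and 225 CPM in L4, a difference of 0.52 ± 0.36. Both genes stood higher in C2 and L4 than in any wild-type cerulein library, and neither difference passed. Of 16 glutathione and NRF2 genes 10 rose, 1 fell and 3 were alike. Slc7a11, the cystine importer, differed by 0.37 ± 0.47 and Srxn1, a peroxiredoxin-repair enzyme, by 0.05 ± 0.70.

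Ddit3, the CHOP factor that follows Atf4, had the largest difference above 0 in the stress lists and was picked out after its values were seen. It stood at 7.37 (O1), 3.58 (O3) and 2.90 CPM (N3) in wild-type cerulein, and at 15.6 (C2), 1.64 (C3) and 15.5 CPM (L4) in the labelled knockout. The saline libraries of both labels lay between 1.69 and 3.49 CPM, so C2 and L4 stood above all others. The difference was 1.83 ± 0.52 without C3 (unadjusted p = 0.00521, adjusted p = 0.999) and 1.32 ± 0.93 with it.

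Heat shock genes, chaperones for misfolded protein, rose in 14 of 15 cases, and 7 were alike. The median difference was -0.23 (-0.43 to -0.11), 11 of 15 members were below 0, and 3 of these (Hspa1a, Hspa1b and Dnajb1) had an unadjusted p under 0.05. The count of members under 0.05 was 1 without W1, K5, O1, S1, Q1 or C2, and 4 without K4. The inducible Hsp70 gene Hspa1a stood at 15.3 to 33.8 CPM in wild-type cerulein and 9.52 (C2) and 12.4 CPM (L4) in the labelled knockout. Its difference was -1.54 ± 0.68 (unadjusted p = 0.0444) and that of its near-identical copy Hspa1b, which can share reads, was -1.39 ± 0.44. Of 25 chaperone and degradation genes of the endoplasmic reticulum, 3 rose and 13 fell, and 8 were alike. Sel1l, a subunit of the degradation complex, stood at 54.9 to 77.0 CPM in wild-type cerulein and at 98.6 CPM in C2 and 109 CPM in L4, a difference of 0.38 ± 0.33. Sdf2l1, a folding cofactor, differed by 0.52 ± 0.44.

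By count, ribosome biogenesis had the most alike members of the 35 lists. Its members had a median wild-type response of 1.02 on the log2 scale and a median interval half-width of 0.481. Of all genes that rose, 73.1% were alike where the rise was below 1 and 40.3% where it was between 1 and 2. All 21 ribosome biogenesis genes rose and 20 were alike, with a median difference of -0.17 (-0.24 to -0.06). Rrp12, an export factor of ribosomal subunits, stood at 30.5 to 40.6 CPM in wild-type cerulein, 35.3 CPM in C2 and 34.2 CPM in L4, and differed by -0.06 ± 0.20. Nop58, a core nucleolar protein, was the undecided member, at -0.28 ± 0.42. Of 20 cytosolic aminoacyl-tRNA synthetases, which load amino acids onto tRNA, 14 rose and 11 were alike. The median was 0.23, with 0.04 without K4, 0.07 without N3 and -0.04 without N3 and K4. Rars reached 59.1 to 72.5 CPM in wild type, 97.3 CPM in C2 and 89.6 CPM in L4, a difference of 0.41 ± 0.20 that was alike within 2-fold although the groups did not overlap. Nars differed by 0.18 ± 0.25. Amino acid transporters rose in 10 of 14 cases and fell in 2, and 2 were alike. Among 10 polyamine genes 6 rose, 3 fell and 3 were alike, with Azin1, an antizyme inhibitor, at 0.33 ± 0.26 and Sat1, which acetylates spermidine, at 0.38 ± 0.52.

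Most digestive enzyme genes fell. Of 29 digestive enzyme and secretory genes, 2 rose and 20 fell, 14 were alike, and the median difference was -0.03 (-0.25 without K4 to 0.09 without Q1). Cpa1, a carboxypeptidase, stood at 36486 to 44612 CPM in wild-type cerulein and at 41507 CPM in C2 and 39026 CPM in L4, a difference of -0.03 ± 0.27, and it was alike with C3 as well. The rising trypsinogens Prss1 (-0.34 ± 0.50) and Prss3 (-0.70 ± 0.64) were undecided, and the counting may have split reads among these near-identical trypsinogens. Of 14 acinar identity genes 1 rose and 7 fell, and 3 (Rbpjl, Nr5a2 and Gjb1) were alike. Cckar, the receptor that cerulein binds, stood at 17.5 to 18.5 CPM in wild-type cerulein, 35.3 CPM in C2 and 7.60 CPM in L4, from 268 to 346 CPM in saline. C2 lay above and L4 below the wild-type range, and the difference was 0.41 ± 0.60 without C3 and 3.02 ± 1.32 with it. The connexin Gjb2 rose, with a difference of 0.11 ± 0.44.

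The Reg family, secreted lectins of the stressed pancreas, had wide intervals. Of its 6 members 4 fell and none was alike, and the median difference was 0.90 without C3 and 3.12 with it. The value without C3 ran from 0.15 when C2 was also left out to 2.30 when S1 was. Reg3g stood at 675 (W1), 49.6 (K5) and 432 CPM (R3) in wild-type saline and at 738 (S1), 65.9 (K4) and 106 CPM (Q1) in labelled knockout saline. In cerulein it stood at 3.13, 9.83 and 1.45 CPM in wild type (O1, O3, N3) and at 8.91 (C2), 888 (C3) and 3.98 CPM (L4) in the labelled knockout. The saline libraries spread more than 10-fold within each label, and C3 held the highest level of all 12 libraries. The difference was 0.78 ± 1.68 without C3 and 6.32 ± 2.55 with it. Reg3a gave 1.53 ± 1.84 and 5.21 ± 2.31.

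Of 17 ductal markers 12 rose and 3 fell, and 3 (Krt18, Epcam and Tff2) were alike. Krt8, the partner of Krt18, differed by 0.12 ± 0.40 and was undecided. Krt19 and Krt7, keratins of duct cells picked out after their values were seen, had estimates of opposite sign. Krt19 stood at 90.8 to 113 CPM in wild-type cerulein and at 54.6 (C2) and 35.0 CPM (L4) in the labelled knockout, a difference of -1.07 ± 0.28 (unadjusted p = 0.00281). Krt7 stood at 6.97 to 14.3 CPM in wild type and at 15.2 (C2) and 23.5 CPM (L4), a difference of 1.39 ± 0.40 (unadjusted p = 0.00564). Cldn4, a tight junction claudin, stood at 7.22 to 8.86 CPM in wild type and at 70.7 (C2) and 19.4 CPM (L4), a difference of 2.12 ± 0.77 (unadjusted p = 0.0208). The adjusted p was 0.999 for all 3 genes. Their saline levels, which also enter the differences, are not given here. Actin and SRF targets rose in 16 of 20 cases and 8 were alike, whereas of 20 YAP and wound genes 9 rose and none was alike, with Ankrd1 at 0.73 ± 0.91.

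**Figure D5:**
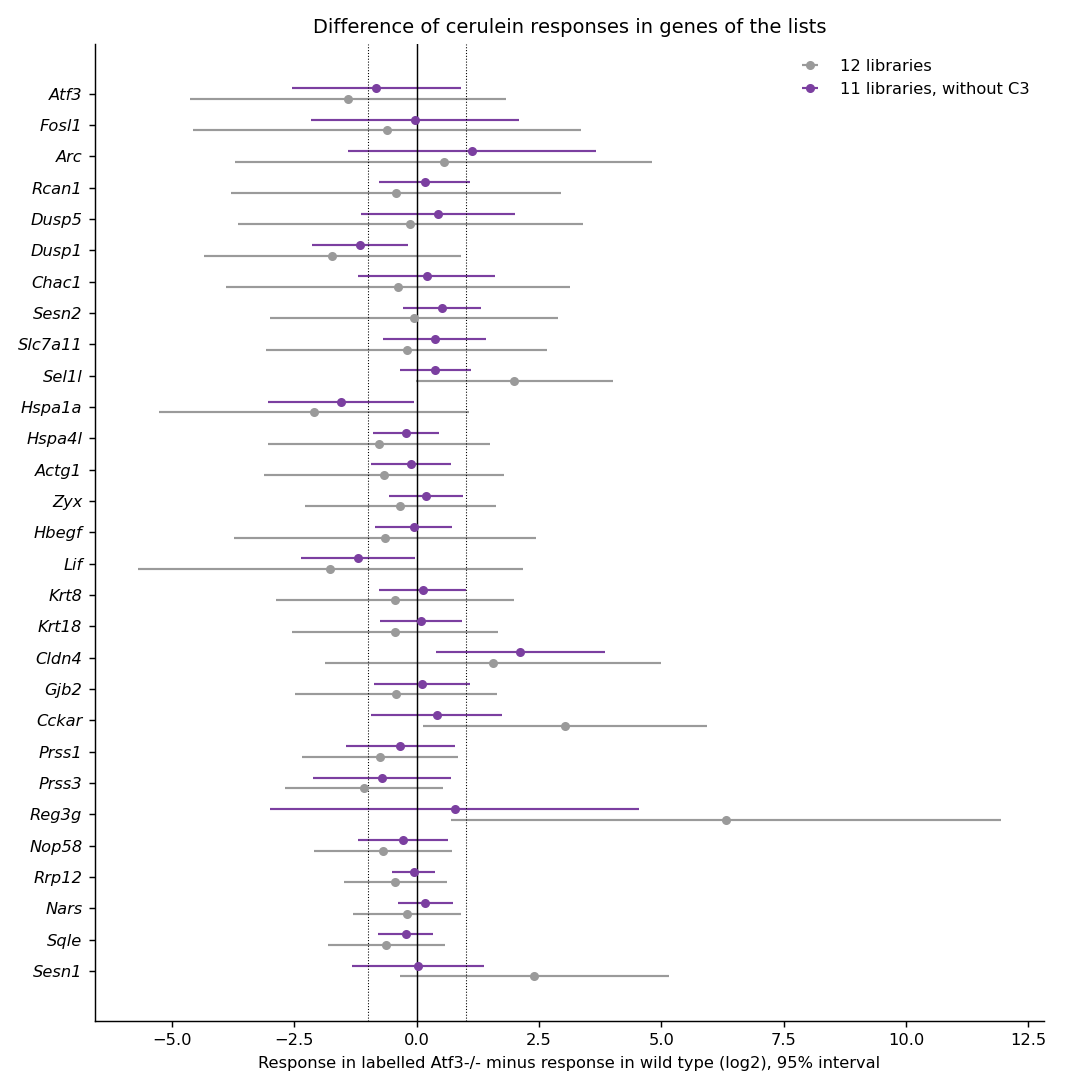
Difference of cerulein responses (log2, labelled knockout minus wild type) with its 95% interval for 29 genes, without C3 (purple) and with all 12 libraries (grey). Dotted lines mark 2-fold either way. Intervals of Krt18, Hbegf and Rrp12 lie within the lines without C3, and every grey interval is wider than the purple one beside it.

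Of 16 fatty acid oxidation genes 15 fell and 8 were alike. The median difference was 0.11, with -0.17 without C2, where 11 of 16 members were below 0, and 0.29 without L4. Of 19 cholesterol genes 10 rose and 3 fell, and 7 were alike, among them Sqle, squalene epoxidase, at -0.23 ± 0.25, while Msmo1, a sterol demethylase, was undecided at 0.57 ± 0.39. Of 17 circadian genes 4 rose and 8 fell and none was alike, and Dbp, a clock output factor that ranged from 1.72 to 46.1 CPM over the saline libraries, had a difference of 0.42 ± 1.51. Nfil3, of the same list, rose, with a difference of -0.83 ± 0.88. Of 12 mitochondrially encoded mRNAs 7 fell and 6 were alike, including mt-Nd4 at 0.02 ± 0.28 and mt-Co2 at 0.13 ± 0.30.

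Of 18 deacetylase and chromatin genes 4 rose, 6 fell and 8 of these 10 were alike, with Kdm6b, a histone demethylase, at -0.00 ± 0.25 and Hdac5 at -0.08 ± 0.26. Of 16 p53 and growth arrest genes 8 rose and 3 fell, and 3 were alike, with Gdf15, a stress cytokine, at 0.76 ± 0.87 and Sesn1 at 0.03 ± 0.61. Of 14 cell cycle genes 3 rose and 1 was alike, and the replication genes Mcm6 and Cdc6 stood at -0.86 ± 0.40 and -1.18 ± 1.02. Among 17 calcium and secretagogue signalling genes 8 rose, 3 fell and 5 were alike, and Tac1, the substance P precursor, at 121 to 201 CPM in wild-type cerulein and 32.8 (C2) and 216 CPM (L4) in the labelled knockout, differed by -0.55 ± 1.73. Vipr1, a receptor for vasoactive intestinal peptide picked out after its values were seen, stood at 4.49 to 5.37 CPM in wild-type cerulein and at 9.71, 9.85 and 18.2 CPM in C2, C3 and L4. Those 2 groups did not overlap within cerulein, but the difference of responses also takes in saline levels, which are not given here. The difference was 2.02 ± 0.54 without C3 and 1.87 ± 0.52 with it (unadjusted p = 0.00364 and 0.00421, adjusted p = 0.999 and 0.812).

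Inflammatory genes leaned below 0 and were loosely measured. Of 32 cytokines and chemokines 13 rose and 1, Hbegf, was alike, and 30 had a difference below 0, with a median of -0.99 and a median interval half-width of 2.59. Lif, a cytokine of the interleukin-6 family, stood at 0.411 to 1.03 CPM in wild-type saline and 0.477 to 1.30 CPM in labelled knockout saline. In cerulein it stood at 565, 614 and 534 CPM in wild type (O1, O3, N3) and at 261 (C2), 0.938 (C3) and 412 CPM (L4) in the labelled knockout. C2 and L4 lay below all wild-type cerulein libraries, and the difference was -1.20 ± 0.52 without C3 (unadjusted p = 0.0436, adjusted p = 0.999). Without N3 and K4, the libraries highest in adipocyte markers, the list's median was -0.50 and 25 of 32 members were below 0. Without S1 alone it was -0.32, with 24 below 0, and without Q1 it was -1.41.

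Interferon-stimulated genes had no averaged response in any of 21 members, and all 21 differences were below 0, from -6.48 to -0.42 with a median of -1.45. The 4 members Ifit2, Mx1, Mx2 and Cxcl9, had an unadjusted p under 0.05, and none passed the adjusted threshold. That count was 15 without Q1, 10 without W1, 1 without K5, R3, O3, N3, S1 or L4 and 0 without C2. The summed level of the list was 112 to 212 CPM in wild-type saline, 146, 184 and 301 CPM in wild-type cerulein (O1, O3, N3), 380, 243 and 93.7 CPM in labelled knockout saline (S1, K4, Q1) and 139, 146 and 120 CPM in labelled knockout cerulein (C2, C3, L4). The highest libraries were S1 and N3. Cxcl9, a chemokine induced by interferon gamma and picked out after its values were seen, had its highest level in N3 (16.5 CPM) and the next in K4 (8.02 CPM). Without N3 and K4 all 21 differences were still below 0, with a median of -1.09, and without S1 the median was -0.79.

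Markers of other cell types stood high in single libraries. The summed level of 10 adipocyte markers was 681 CPM in N3 and 921 CPM in K4, against 70.8 to 286 CPM in the other 10 libraries, and that of the lymphocyte markers was 622 CPM in N3, 320 CPM in W1, 312 CPM in K4 and 5.72 to 87.4 CPM elsewhere. All 10 adipocyte and all 11 lymphocyte markers had a difference below 0, with medians of -3.53 and -3.32. Without N3 and K4 the medians were 3.70 and 0.92. Neutrophil markers (5, all below 0) and macrophage and monocyte markers (12 of 14 below 0) had medians of -1.97 and -0.99, and 0.35 and 0.15 without N3 and K4. The 16 islet markers were all above 0, with a median of 2.01 that became -0.25 without L4, where their summed level was 12501 CPM against 496 to 3846 CPM elsewhere. Ins1, an insulin gene, stood at 3306 CPM in L4 and 346 CPM in C2, and Chgb, a granin of hormone granules, at 106 and 9.90 CPM. Ccr2, a monocyte chemokine receptor, had its highest levels in N3 (30.3 CPM) and K4 (19.6 CPM). Fibroblast markers (7 of 12 below 0) had a median of -0.21 that became 0.26 without N3 and, with all 12 above 0, 0.64 without N3 and K4. Endothelial markers had a median of 0.12 (-0.06 without L4, 0.36 without C2), with Esam at 0.02 ± 0.29 (alike) and Kdr at 0.44 ± 0.32. The part of these cell types in the differences of other genes was not tested.

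Promoter sequence was set beside these classes, since Atf3 and its partners bind known motifs. No gene passed the threshold of the difference, so the promoters are those of responding and named genes. Motifs (3) were searched on both strands from 250 bases before to 50 after the start of each gene in RefSeq's table (GRCm38.p6): the cyclic AMP response element TGACGTCA, the AP-1 site TGACTCA and the C/EBP-ATF element TGATGCAA. None of the 3 contains another. Among all 27025 genes listed there, 2.03%, 5.95% and 1.03% held them in at least 1 promoter. Of the 10761 genes tested that are listed there, the shares were 3.47%, 4.86% and 0.781%. Of 1611 listed genes that rose alike, 5.21%, 4.41% and 0.435% held them. Of 1365 that rose and were undecided, 3.81%, 8.06% and 1.98% did. For genes that fell the shares were 2.68%, 3.07% and 0.630% of 1270 alike and 3.16%, 3.51% and 0.702% of 1139 undecided genes. Undecided means that neither test passed, not that the responses differed. Undecided genes were also less abundant, and genes with larger rises were less often alike. A link between motifs and the difference of responses was not tested. Of the named genes 60 had a promoter in the table, and 4, 8 and 3 of them held the motifs.

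The stretches show 1 motif in capitals, in the letters of either strand, for Atf3 itself, for 2 genes that rose alike (Zyx, Rab11fip3), for 2 that rose with an estimate below 0 and an unadjusted p under 0.05 (Dusp1, Lif), and for Rcan1, which was undecided near 0. They are 5′ to 3′ on the strand of the gene, from GRCm38.p6, and a match is a description of the letters, not a binding site.
Atf3, C/EBP-ATF element, chr1:191183390-191183489, minus strand: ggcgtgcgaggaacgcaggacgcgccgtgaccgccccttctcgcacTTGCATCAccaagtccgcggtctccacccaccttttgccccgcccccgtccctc
Zyx, AP-1 site, chr6:42349661-42349760, plus strand: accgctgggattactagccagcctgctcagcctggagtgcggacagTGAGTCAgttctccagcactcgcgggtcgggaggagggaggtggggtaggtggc
Rab11fip3, cyclic AMP response element, chr17:26069519-26069618, minus strand: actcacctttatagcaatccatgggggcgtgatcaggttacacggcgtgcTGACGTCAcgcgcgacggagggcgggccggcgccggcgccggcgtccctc
Dusp1, cyclic AMP response element, chr17:26508562-26508661, minus strand: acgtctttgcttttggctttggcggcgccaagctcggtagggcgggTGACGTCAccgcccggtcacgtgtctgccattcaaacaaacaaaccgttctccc
Lif, AP-1 site, chr11:4257318-4257417, plus strand: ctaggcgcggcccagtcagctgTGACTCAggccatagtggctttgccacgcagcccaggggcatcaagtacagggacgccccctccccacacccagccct
Rcan1, cyclic AMP response element, chr16:92400200-92400299, minus strand: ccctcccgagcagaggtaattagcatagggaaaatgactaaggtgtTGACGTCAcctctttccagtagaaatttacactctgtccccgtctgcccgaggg
These genes were chosen because they hold a match.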

How the data were processed

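RNA sequencing counts were analysed for 12 whole-pancreas libraries, 3 in each of 4 groups taken from the labels. The deposited values were whole-number counts per gene, 1 table per library, made by the authors. HTSeq, DESeq2 and the mm10 build are named, without their roles, per the submitters' processing notes. For the strand setting, gene annotation and aligner, details were not given in the sources used here. Reads of overlapping genes on opposite strands therefore cannot be told apart. Totals ran from 18292997 to 32158629 counts.

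Counts were fitted in edgeR 4.0.16 (R 4.3.3) by the robust quasi-likelihood test with 1 mean per group, TMM scaling and edgeR's filter on low counts. P-values were adjusted by the Benjamini-Hochberg method over all genes tested, with a threshold of 0.05. Intervals are 95% and ± marks the SE. For edgeR the SE was derived from the F test, as the size of the estimate divided by the square root of F. The intervals and the alike test used this derived value. The alike test used 2 one-sided tests within a log2 margin of 1. Alternatives used limma 3.58.1 (voom), DESeq2 1.42.0, other scalings, filters and margins, and fits without each library. The model was also run on simulated counts, and no result given here rests on that run. At the spread of these data, it set no requirement on how often equal responses were called alike. P-values measure the spread between animals as labelled.

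Named genes were Atf3, genes past the threshold or else the 5 lowest p values each way, the 10 largest rises and 5 largest falls called alike, and up to 2 or 3 members of each list by size, at a mean of at least 1 CPM outside the lists, without unnamed gene models and pseudogenes. The members and lists were chosen with earlier results of these data known. Ddit3, Krt19, Krt7, Vipr1 and Cxcl9, and the alike members named beside counts, were chosen after their values were seen. A few genes that the rule names are not reported here.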

Additional observations from a re-analysis of the deposited data

How the results depend on the processing

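The count of genes whose responses differed was 0 under every alternative run in both sets of libraries, except that DESeq2 called 1 gene with 12 libraries. With 12 libraries the count of alike genes (999) was 0 with no filter on low counts, 1 without N3 and K4, 0 with a margin of 1.5-fold and 3298 with a log2 margin of 1.5. Leaving out 1 library gave 0 (without R3) to 3682 (without C3). Without C3 the count (3611) was 1 with a margin of 1.5-fold and 5541 with a log2 margin of 1.5, and leaving out 1 more library gave 1593 (without L4) to 3606 (without N3). The median signed difference of responding genes was -0.54 (without C2) to -0.084 (without C3) from 12 libraries. From 11 it was -0.14 (without N3) to -0.047 (without C2), -0.14 without N3 and K4, and -0.16 when responding genes were chosen by the wild-type response. Of the named genes' values under these alternatives, 1401 of the 11-library values kept their direction and call, 27 moved and 129 lost a call; for 12 libraries the numbers were 1586, 39 and 13, and 1 gained a call. The causes were not tested. No paired analysis was possible because each library code occurs in 1 group. Without C3 the labelled knockout had 2 cerulein libraries, and the median unadjusted 95% interval of a difference reached 0.854 either way on the log2 scale. After adjustment larger differences were not called either.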
